A study of Mus musculus with 18 samples.

Results

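The D-type cyclins Ccnd1, Ccnd2 and Ccnd3, the kinases they activate (Cdk4 and Cdk6), and the CDK inhibitors Cdkn1b, Cdkn1c, Cdkn2a, Cdkn2b and Cdkn2c are described here in the mouse heart after irradiation. These 10 genes were found in the expression table by the Ensembl identifiers that carry their symbols, among 30072 genes in the table, and all 10 passed the low-count filter that left 15054 genes for testing. RNA-seq was made from septal myocardium of CD-1 mice of both sexes, aged 8 weeks or more, with littermate controls matched for age and sex. The 3 groups held 6 mice each: controls, mice studied 2 weeks after 25 Gy to the heart, and mice 6 weeks after that dose. By the study's methods, sham controls were anesthetized and had CT imaging but no radiation treatment. The labels name CD-1 mice kept on a mixed background, with no engineered allele, and no agent other than radiation and anesthesia. The labels name the septum and gamma radiation, where the study's methods describe ventricular tissue and X-rays directed at the whole heart. The controls are labelled with no time point, and both irradiated groups are compared with the same control mice.

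D-type cyclins are made when growth signals reach a cell, bind CDK4 or CDK6, and start the phosphorylation of the retinoblastoma protein, which otherwise holds E2F transcription factors in check. INK4 inhibitors (Cdkn2a, Cdkn2b, Cdkn2c) bind CDK4 and CDK6 and keep the cyclin off, while the CIP/KIP inhibitors p27 (Cdkn1b) and p57 (Cdkn1c) bind cyclin-CDK complexes more widely and block those of CDK2. Adult cardiomyocytes rarely divide, whereas endothelial cells, fibroblasts and macrophages of the heart can re-enter the cycle.

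Libraries held between 11522987 and 15501019 estimated counts, and TMM factors ran from 0.844 to 0.991 in controls, from 0.962 to 1.04 at week 2 and from 1.04 to 1.13 at week 6. The median share of counts from mitochondrially encoded genes was 23.2% in controls, 20.2% at week 2 and 17.4% at week 6. The cardiomyocyte markers Myh6, Tnnt2, Actc1, Ryr2 and Pln were abundant in every group, at a median summed level of 35635 CPM in controls, 30220 at week 2 and 24975 at week 6, and all 5 were lower at week 6 (edgeR adjusted P under 0.05). The 5 macrophage markers were all higher at week 6, with a summed level of 125 to 395 CPM in controls and 346 to 465 at week 6. Of 5 endothelial markers, Pecam1 and Cdh5 were higher and Tie1 lower at week 6, and the sum ran from 688 to 847 CPM in controls and from 851 to 1158 at week 6. Fibroblast markers changed in 1 of 5 genes (Pdgfra, lower), at 735 to 2019 CPM in controls and 834 to 1097 at week 6. T and NK cell markers stayed low, with a summed level of 0.517 to 0.911 CPM in controls and 1.26 to 3.17 at week 6, as did B cell markers, at 0.463 to 0.831 and 1.13 to 2.63 CPM. Of the 3 genes tested in each list, Nkg7 and Cd8a and, among B cell markers, Cd79a and Cd79b were higher at week 6 (log2 3.04, 1.74, 1.59 and 1.79). The share of these cell types in the changes described next was not tested. Control mouse 4 had the highest summed fibroblast (2019 CPM), macrophage (395 CPM), skeletal muscle (3874 CPM) and atrial (1582 CPM) marker levels among controls. Leaving it out changed no call among the 10 genes. Its skeletal muscle and atrial sums rested mostly on Acta1 and Nppa, which reached 3873 and 1451 CPM in controls. Highest control values of the other markers were 0 (Myh4), 0.486 (Tnnt3), 58.6 (Myl7), 25.5 (Sln) and 51.9 CPM (Myl4). Week 2 was uneven too, with Myl7, Sln and Myl4 at medians of 23.2, 5.69 and 12.5 CPM and highest values of 290, 91.6 and 201.

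At week 2, 5 of the 10 genes differed from controls (edgeR quasi-likelihood test, Benjamini-Hochberg adjusted P under 0.05 over all genes), 3 higher (Ccnd1, Ccnd2, Cdk6) and 2 lower (Cdkn1b, Cdkn1c), where 5.04% of all genes tested passed, 3.10% higher and 1.93% lower. At week 6, 6 of 10 differed, Ccnd3 joining the higher genes, against 25.0% of all genes, 13.5% higher and 11.5% lower. Between 2 and 6 weeks 2 genes differed, Ccnd1 and Cdk6, both higher at week 6, against 5.32% of all genes, 3.31% higher and 2.01% lower. The median log2 fold change of the 10 genes was 0.14 at week 2, 0.42 at week 6 and 0.22 between the time points, beside −0.0015, −0.019 and −0.00084 over all genes. With an absolute log2 fold change above 1 required as well, 2, 3 and 0 of the 10 genes passed, against 0.903%, 5.95% and 1.14% of all genes. The median joins genes that rose and genes that fell, so each role is taken in turn. Values below are CPM (counts scaled to library size and TMM factor) unless named otherwise, errors of log2 fold changes are standard errors (SE), and in bulk tissue fewer cells of a type and less RNA per cell cannot be told apart.

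**Figure D1:**
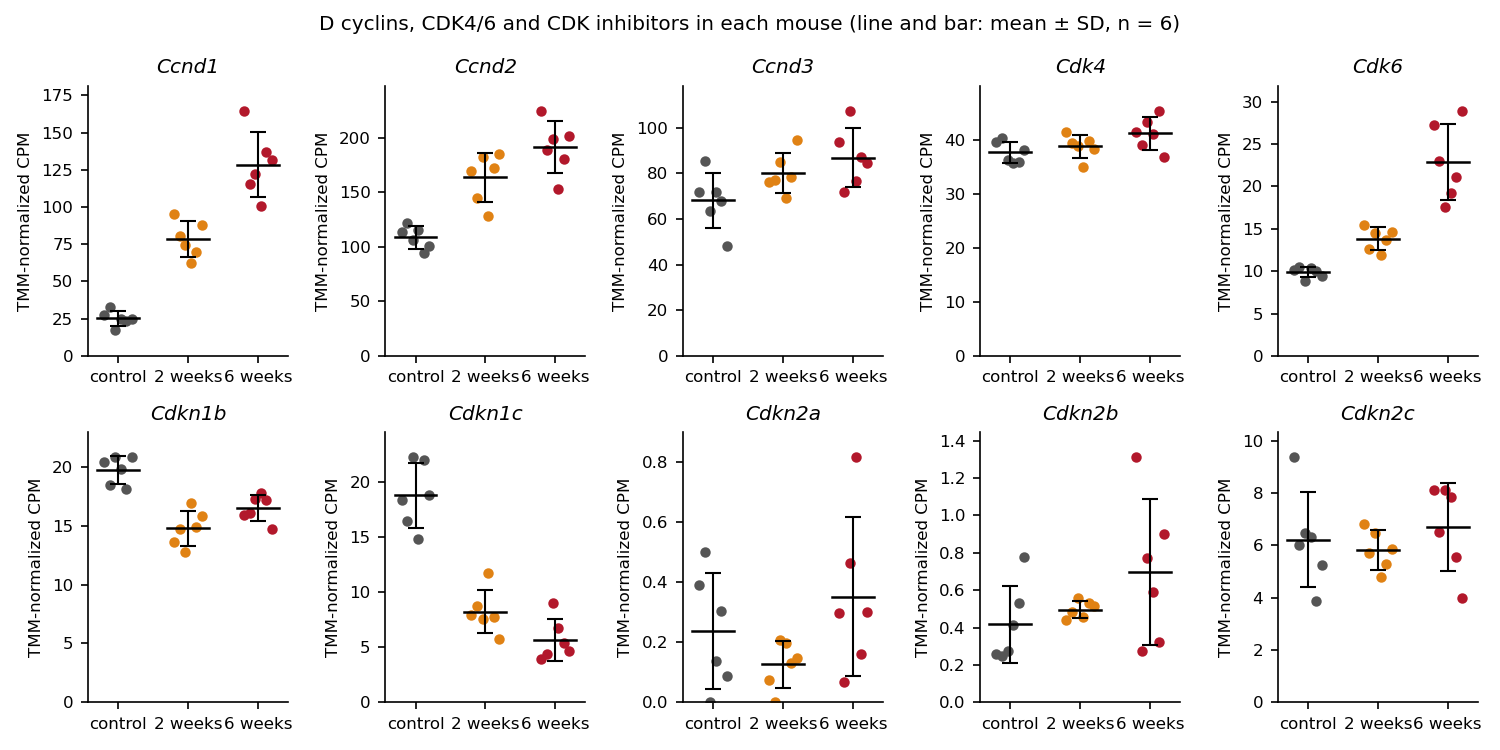
TMM-normalized CPM of the 10 genes in each of 18 mice (points), by group on the horizontal axis, with the mean (line) and SD (bar) of 6 mice; every vertical axis starts at 0. Ccnd1 and Cdk6 climb from group to group without overlap, Cdkn1c and Cdkn1b lie below controls after irradiation (for Cdkn1b at week 6 the direction flips without TMM scaling), and Cdkn2a and Cdkn2b stay under 2 CPM in every mouse.

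Ccnd1, which encodes cyclin D1, had the largest rise over controls of the 10 genes at both times (ENSMUSG00000070348, GRCm38 chr7:144929931-144939925, minus strand). Its level had a lowest, median and highest value of 17.3, 24.9 and 33.2 CPM in controls, of 62.5, 77.5 and 95.4 at week 2, and of 101, 127 and 165 at week 6. Every mouse at week 2 was above every control, and every mouse at week 6 was above every mouse at week 2. The log2 fold change against controls was 1.64 at week 2 (SE 0.141, adjusted P = 1.061e-06) and 2.35 at week 6 (SE 0.143, adjusted P = 7.183e-09), or 3.11-fold and 5.09-fold. From 2 to 6 weeks Ccnd1 rose by a further 1.64-fold (log2 0.71, SE 0.134, adjusted P = 0.007732). Groups as cleanly separated as these were found in 3.24% of all genes at week 2, 9.23% at week 6 and 3.53% between the time points. LTO1, which lies on the opposite strand and overlaps Ccnd1, had log2 fold changes of −0.03 and 0.01 at 2 and 6 weeks (adjusted P = 0.8997 and 0.9411); whether counting used strand is not stated in the sources used here.

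Ccnd2 encodes cyclin D2 and was the D cyclin with most counts (ENSMUSG00000000184, chr6:127125162-127152193, minus strand). It lay between 94.1 and 122 CPM in controls (median 110), between 129 and 185 at week 2 (median 171) and between 153 and 225 at week 6 (median 194). Neither irradiated group overlapped the controls, while the irradiated groups overlapped each other. Ccnd2 rose by 0.59 on the log2 scale at week 2 (SE 0.0979, adjusted P = 0.002293) and by 0.82 at week 6 (SE 0.0981, adjusted P = 1.247e-05), and its difference between time points, 0.23 (95% interval 0.0228 to 0.43), did not pass (adjusted P = 0.1835). Antisense genes annotated over Ccnd2, Cdk6 and Cdkn1c have no row in the table and were not analysed here.

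Ccnd3 encodes cyclin D3, the D cyclin with the highest level per transcript length (ENSMUSG00000034165, chr17:47505051-47599691, plus strand). Its lowest, median and highest values were 48.1, 69.8 and 85.3 CPM in controls, 69.3, 77.7 and 94.7 at week 2, and 71.6, 85.9 and 107 at week 6, so that all groups overlapped. At week 6 it rose by 0.35 on the log2 scale (SE 0.117, adjusted P = 0.03392), a call lost when any of 7 mice was left out, controls 3, 5 and 6 and 6-week mice 1, 3, 5 and 6 (adjusted P between 0.0508 and 0.0924), and when only those groups entered the fit (adjusted P = 0.0588). At week 2 the difference was 0.23 with a 95% interval from −0.011 to 0.48 (adjusted P = 0.2686), and it passed on log2(TPM + 1) (0.44, limma adjusted P = 0.0466) and on log2(TPM + 0.1) (0.45, limma adjusted P = 0.044). Relative to the median of all genes on those TPM scales, the 2-week values were 0.264 and 0.214. Bysl, which overlaps Ccnd3 on the opposite strand, went from a median of 22.5 CPM in controls to 15.0 at week 6 and was not called (log2 −0.39, adjusted P = 0.3981).

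Levels of different genes can be set side by side only per length, in TPM. Summed over the 3 D cyclins, the level was 61.0 TPM in the median control (range 43.6 to 72.7), 106 at week 2 (90.3 to 122) and 145 at week 6 (110 to 178), with no overlap between controls and irradiated mice. Ccnd1 made up 8.29% to 13.6% of that sum in controls, 21.0% to 27.4% at week 2 and 27.1% to 33.8% at week 6. Ccnd3 went the other way, from 49.0% to 59.3% in controls down to 34.4% to 42.6% at week 6, although its own level was not lower. The share of Ccnd2 had medians of 32.3%, 32.6% and 30.9%. In controls the 3 D cyclins were thus ordered Ccnd3 (median 35.2 TPM), Ccnd2 (19.3) and Ccnd1 (6.59) without overlap between Ccnd2 and Ccnd1, while at week 6 the ranges of Ccnd3 (44.2 to 70.1), Ccnd2 (33.5 to 56.0) and Ccnd1 (32.3 to 60.3) overlapped. These shares are descriptive and carry no test. On log2(TPM + 1) the median of all genes also rose, by 0.178 at week 2 and 0.286 at week 6. In CPM the D cyclin sum had medians of 200, 331 and 411 in the 3 groups.

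**Figure D2:**
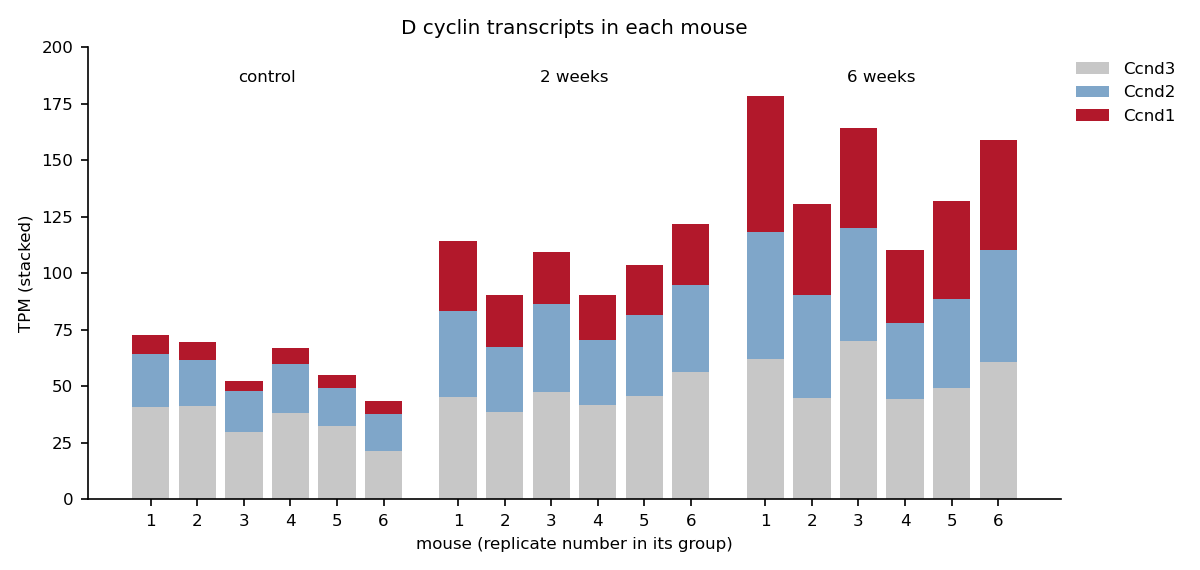
Stacked TPM of Ccnd3 (grey), Ccnd2 (blue) and Ccnd1 (red) in each of 18 mice, numbered by replicate within control, 2-week and 6-week groups. The Ccnd1 segment is at most 8.36 TPM in any control and at least 32.3 TPM in every mouse at week 6.

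The kinases that pair with D cyclins did not move alike. Cdk6 (ENSMUSG00000040274, chr5:3341485-3531008, plus strand) ran from 8.88 to 10.5 CPM in controls (median 10.1), from 11.9 to 15.5 at week 2 (median 14.1) and from 17.6 to 29.0 at week 6 (median 22.1). All 3 groups were separate. Its log2 fold change was 0.48 at week 2 (SE 0.115, adjusted P = 0.02215), 1.21 at week 6 (SE 0.113, adjusted P = 9.558e-07) and 0.73 between the time points (SE 0.109, adjusted P = 0.0018). The call at week 2 was narrow: it was lost without control mouse 3 (adjusted P = 0.052) or without 2-week mouse 1 (adjusted P = 0.0503).

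Cdk4 (ENSMUSG00000006728, chr10:127063534-127067920, plus strand) stayed in a tight range, with medians of 37.2 CPM in controls (35.7 to 40.4), 39.2 at week 2 (34.9 to 41.5) and 41.3 at week 6 (36.8 to 45.4). Its groups overlapped throughout. The log2 difference was 0.04 at week 2 (95% interval −0.084 to 0.17, adjusted P = 0.7495) and 0.13 at week 6 (0.0027 to 0.25, adjusted P = 0.1294). With library size in place of TMM the 6-week value was 0.39 (adjusted P = 0.000161), and on log2(TPM + 1) the values were 0.33 at week 2 (limma adjusted P = 0.047) and 0.47 at week 6 (limma adjusted P = 0.0025). Those scales moved the median of all genes upward as well, by 0.243 at week 6 for library size and by 0.178 and 0.286 at the 2 times for TPM, which leaves Cdk4 0.147 above that median at week 6 by library size and 0.154 and 0.182 above it on TPM. Per length Cdk4 remained the more abundant kinase, at 29.1, 36.8 and 43.6 TPM in the 3 groups against 2.95, 4.86 and 8.62 for Cdk6. The share of Cdk6 in their summed TPM had a median of 8.73% in controls, 11.8% at week 2 and 16.7% at week 6. Tspan31, on the opposite strand and overlapping Cdk4, was not called in any comparison.

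The bases just before the RefSeq starts of these kinases are shown because one gene moved and its partner was not called. Each is the 250 bases before the start, read 5′ to 3′ on the gene's strand from RefSeq on GRCm38.p6, with matches to a TATA box, a CCAAT box, a GC box or an E2F element, on either strand, in capitals. The TATA box was searched as TATAAA. The CCAAT box was searched by the letters of its name, and the GC box as GGGCGG. The E2F elements were TTTCGCGC and the related form TTTGGCGC, and no motif searched overlaps another in these windows. Such windows were found for 7 of the 10 genes and not for Ccnd1, Ccnd2 and Cdkn1c.
Cdk6 (chr5:3343643-3343892, plus strand): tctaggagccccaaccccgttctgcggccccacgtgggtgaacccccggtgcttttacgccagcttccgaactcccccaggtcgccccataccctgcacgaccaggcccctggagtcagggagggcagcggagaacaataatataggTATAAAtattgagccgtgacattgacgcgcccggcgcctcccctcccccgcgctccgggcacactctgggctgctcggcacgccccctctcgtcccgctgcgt
Cdk4 (chr10:127063285-127063534, plus strand): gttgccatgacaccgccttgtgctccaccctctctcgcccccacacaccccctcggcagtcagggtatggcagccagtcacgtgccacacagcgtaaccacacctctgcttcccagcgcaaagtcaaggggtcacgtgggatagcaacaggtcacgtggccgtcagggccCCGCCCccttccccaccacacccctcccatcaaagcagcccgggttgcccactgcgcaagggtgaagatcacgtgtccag
The Cdk6 window held TATAAA starting 103 bases before the start, a motif found in 12.4% of 32851 windows of this length. That window lies before the RefSeq start but inside the GENCODE position given for Cdk6. The Cdk4 window held a GC box on the reverse strand, 80 bases before the start, found in 32.7% of windows. Neither of the E2F forms searched, present in 0.256% and 0.417% of windows, was found before any of the 7 genes. Other forms of the E2F element were not searched.

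Cdkn1c and Cdkn1b, the CIP/KIP inhibitors described here, were both lower after irradiation by the TMM-scaled test, although the direction of Cdkn1b at week 6 flips to 0.0035 with library size alone and to 0.15 on log2(TPM + 1). Cdkn1c (p57; ENSMUSG00000037664, chr7:143458339-143461050, minus strand) is an imprinted gene. Its lowest, median and highest values were 14.8, 18.7 and 22.3 CPM in controls, 5.79, 7.84 and 11.8 at week 2, and 3.94, 5.03 and 9.06 at week 6. No irradiated mouse reached the lowest control, and the irradiated groups overlapped. Cdkn1c fell by 1.18 on the log2 scale at week 2 (SE 0.181, adjusted P = 0.001092) and by 1.73 at week 6 (SE 0.188, adjusted P = 4.745e-06), to 0.441 and 0.301 of the control level. The difference between the time points was −0.55 (SE 0.195, adjusted P = 0.1074), and it passed without 6-week mouse 3, the highest of its group (−0.73, adjusted P = 0.0379). The chromosomal neighbours Kcnq1 and Slc22a18 did not pass in any comparison, with log2 fold changes at week 6 of 0.16 (adjusted P = 0.2333) and 0.52 (adjusted P = 0.2847). Kcnq1 came near at week 2, at 0.31 (adjusted P = 0.05155), in the direction opposite to Cdkn1c. Phlda2 was below the filter and Kcnq1ot1 was not analysed here.

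Cdkn1b (p27; ENSMUSG00000003031, chr6:134920401-134925513, plus strand) had lowest, median and highest values of 18.1, 20.1 and 20.8 CPM in controls, 12.7, 14.8 and 16.9 at week 2, and 14.7, 16.6 and 17.8 at week 6. Both irradiated groups lay wholly below the controls on this scale. Cdkn1b fell by 0.41 on the log2 scale at week 2 (SE 0.0753, adjusted P = 0.004411), and its 6-week value was −0.26 (SE 0.075, adjusted P = 0.01649), a direction that turns with library size alone (0.0035) and on log2(TPM + 1) (0.15, limma adjusted P = 0.173). Relative to the median of all genes on those scales, the 6-week values were −0.24 and −0.135. On log2(TPM + 1) the 2-week value was −0.16 and did not pass (limma adjusted P = 0.204). The window before its start is shown for comparison with the kinases.
Cdkn1b (chr6:134920151-134920400, plus strand): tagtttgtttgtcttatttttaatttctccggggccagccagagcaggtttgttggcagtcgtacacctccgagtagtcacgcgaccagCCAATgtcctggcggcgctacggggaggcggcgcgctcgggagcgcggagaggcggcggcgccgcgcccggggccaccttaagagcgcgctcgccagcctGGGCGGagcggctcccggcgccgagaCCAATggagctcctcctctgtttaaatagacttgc
It held CCAAT at 161 and 35 bases before the start, found in 33.8% of windows, and a GC box at 61 bases. In summed TPM the pair went from a median of 13.0 in controls (10.9 to 14.8) to 8.40 at week 2 (7.58 to 11.6) and 9.13 at week 6 (8.68 to 11.9). Cdkn1c made up a median of 53.5% of that sum in controls, 41.0% at week 2 and 28.0% at week 6. In CPM the sum of the pair had medians of 39.2 in controls, 22.1 at week 2 and 21.5 at week 6.

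None of these 3 INK4 genes passed edgeR's test in any of the 3 comparisons, although 2 of the 9 tests had an unadjusted P under 0.05 (Cdkn2b against controls at week 6 and Cdkn2a between time points), and limma voom called none of them, nor did DESeq2 among the 7 for which it gave an adjusted P. The depth limits what could be seen for Cdkn2a and Cdkn2b. Cdkn2c (p18; ENSMUSG00000028551, chr4:109660876-109667189, minus strand) was the only gene of the 3 above 2 CPM, with lowest, median and highest values of 3.86, 6.15 and 9.37 CPM in controls, 4.77, 5.78 and 6.82 at week 2, and 3.99, 7.19 and 8.13 at week 6. Its log2 difference was −0.10 at week 2 (95% interval −0.51 to 0.30, adjusted P = 0.814) and 0.10 at week 6 (−0.29 to 0.50, adjusted P = 0.7465). Cdkn2c made up a median of 87.6%, 86.5% and 78.0% of the summed INK4 TPM in the 3 groups, and that sum had medians of 4.31, 4.17 and 5.99 TPM. In CPM the INK4 sum had medians of 6.75, 6.35 and 8.07.

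Cdkn2b (p15; ENSMUSG00000073802, chr4:89306299-89311039, minus strand) had 3 to 9 estimated counts per control library, 6 to 8 at week 2 and 4 to 22 at week 6. Its log2 difference at week 6 was 0.78 (95% interval 0.019 to 1.54, adjusted P = 0.1282), and it passed with library size alone (1.04, adjusted P = 0.0311), on log2(TPM + 1) (0.32, limma adjusted P = 0.0299), on log2(TPM + 0.1) (0.83, limma adjusted P = 0.0317) and without 6-week mouse 2 (0.95, adjusted P = 0.0498). Relative to the median of all genes, that was 0.795 with library size, 0.0321 on log2(TPM + 1) and 0.464 on log2(TPM + 0.1). Mtap, the gene beside this cluster, was at 0.05 (SE 0.0811, adjusted P = 0.7132).

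Cdkn2a (ENSMUSG00000044303, chr4:89274471-89294653, minus strand) encodes p16Ink4a from its inner start and p19Arf, a protein of another reading frame that restrains Mdm2, from its outer start. The table gives a count for the gene, so these products cannot be told apart. It had 0 to 6 estimated counts per control library, 0 to 3 at week 2 and 1 to 11 at week 6, or 19, 11 and 29 counts over the 6 libraries of each group. A floor of 3 counts corresponds to 0.179 to 0.278 CPM in these libraries (counting error only), and the median control and the median 2-week mouse lay under their groups' median floors. At week 6 the adjusted P against controls was 0.5363 (log2 0.49, 95% interval −0.58 to 1.56), and the data allow changes within that interval. The windows before its starts are shown because a count per gene sums over them.
Cdkn2a outer start (chr4:89294620-89294869, minus strand): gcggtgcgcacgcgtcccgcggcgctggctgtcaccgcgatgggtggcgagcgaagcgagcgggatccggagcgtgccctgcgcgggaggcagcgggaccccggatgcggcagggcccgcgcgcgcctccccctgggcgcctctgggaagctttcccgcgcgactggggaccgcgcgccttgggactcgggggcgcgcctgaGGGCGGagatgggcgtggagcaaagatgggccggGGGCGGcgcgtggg
Cdkn2a inner start (chr4:89282193-89282442, minus strand): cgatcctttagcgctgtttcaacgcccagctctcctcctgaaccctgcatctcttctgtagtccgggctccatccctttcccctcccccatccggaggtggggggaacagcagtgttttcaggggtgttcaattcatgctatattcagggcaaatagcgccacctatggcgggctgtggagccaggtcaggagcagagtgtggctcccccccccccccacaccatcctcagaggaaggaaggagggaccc
The outer window was 78.4% G and C with GC boxes at 48 and 14 bases before the start, and the inner window was 60% G and C with none of the motifs searched, where the median over all windows was 52.4%. The RefSeq outer start lies inside the GENCODE position given for Cdkn2a. The end of the outer window, with the GC box at 14 bases, is therefore within the gene as annotated by GENCODE.

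**Figure D3:**
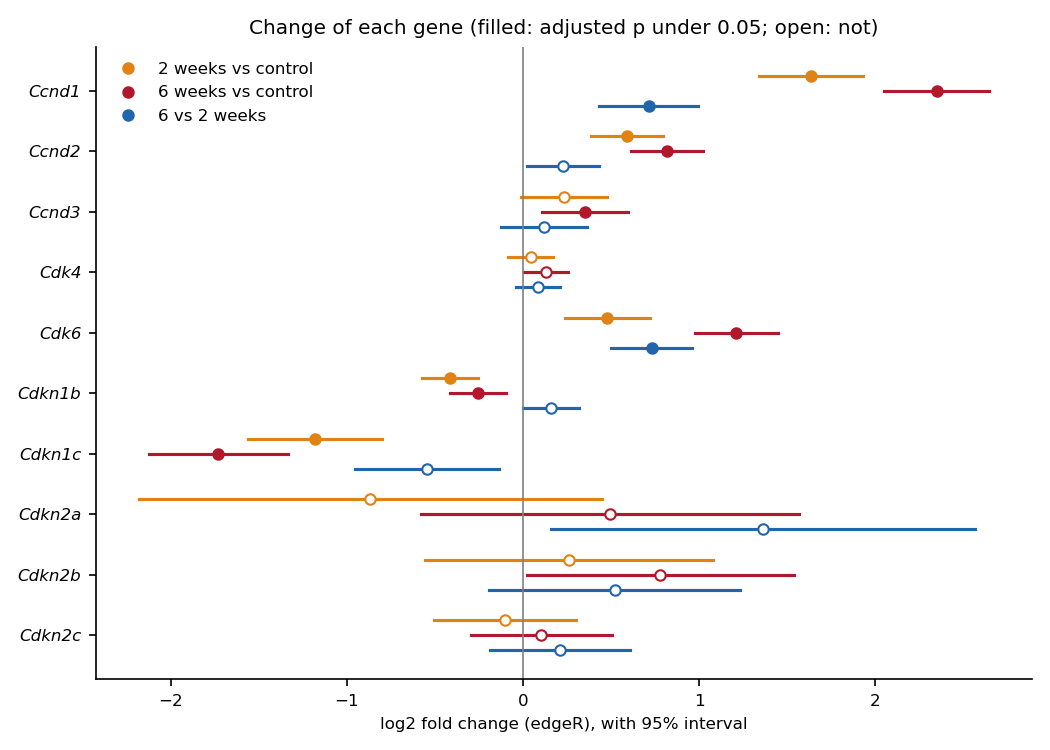
Log2 fold changes of the 10 genes in 3 comparisons (colours) with 95% intervals from edgeR, filled where the adjusted P is under 0.05. Ccnd1, Ccnd2 and Cdk6 lie right of 0 and Cdkn1c left of it at both times, Cdkn1b at week 6 (−0.26) turns to 0.0035 with library size alone, and the intervals of Cdkn2a and Cdkn2b are the widest.

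Other parts of the pathway were read from a list of 44 genes, all tested. At week 2, 4 were higher and 1 lower, at week 6, 12 higher and 5 lower, and between time points 2 higher and 2 lower, with a median log2 fold change of −0.0062, 0.09 and 0.08. The genes called make up 11.4%, 38.6% and 9.09% of the list in the 3 comparisons, where 5.04%, 25.0% and 5.32% of all genes were called. Cdkn1a, the CIP/KIP inhibitor p21 and a p53 target, went from a median of 6.58 CPM in controls to 42.5 at week 2 and 64.8 at week 6 (log2 2.43 and 3.09, adjusted P = 0.0001206 and 1.47e-06), so that the 3 CIP/KIP genes did not share a direction. Cdkn2d, the remaining INK4 gene, had log2 differences of −0.31 and −0.18 and did not pass (adjusted P = 0.1817 and 0.3444). Trp53 rose by 0.50 and 0.66 and Mdm2, the ubiquitin ligase that p19Arf restrains, by 0.31 and 0.47 on the log2 scale.

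Of the pocket proteins that D cyclin kinases phosphorylate, Rb1 was at −0.07 and −0.02 (95% interval at week 6 −0.19 to 0.16) and Rbl1 rose by 0.68 at week 6 (SE 0.19, adjusted P = 0.01319). Among 10 E2F and DP factors 5 rose and 1 fell at week 6, where 13.5% of all genes were higher and 11.5% lower. E2f1, an activator of S phase genes, went from 0.517 to 2.15 CPM in controls to 1.98 to 2.86 at week 2 and 3.23 to 5.55 at week 6. Its log2 fold change was 0.96 at week 2 (adjusted P = 0.0353), 1.92 at week 6 (adjusted P = 1.243e-05) and 0.97 between them (adjusted P = 0.01409). E2f2 rose by 1.67 and E2f7 by 0.65 at week 6, while E2f6, a repressor, fell by 0.30 at week 2 and by 0.38 at week 6 on the log2 scale. Cdk2, the kinase of cyclin E, was at 0.05 and 0.19 and did not pass (adjusted P = 0.8453 and 0.1923), nor did the other 3 genes of its group.

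Of 7 genes for turnover of D cyclins, cyclin E and p27, Skp2 and its cofactor Cks1b, which mark p27 for degradation, rose by 0.76 and 0.87 at week 6 (adjusted P = 0.0146 and 0.001575) and Fbxw7 fell by 0.22 on the log2 scale (adjusted P = 0.0491). Of 9 regulators of the Ink4-Arf locus only Cbx7, a Polycomb protein, passed, at −0.41 at week 6 (adjusted P = 0.04868). That is 11.1% of those regulators, and the 3 called turnover genes are 42.9% of theirs, beside 25.0% of all genes at week 6. Myc rose by 1.08 at week 6 (adjusted P = 0.0008656), Foxo4 fell by 0.35 on the log2 scale (adjusted P = 0.0006423), and Ccnh of the CDK-activating kinase fell by 0.30 (adjusted P = 0.003437).

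Genes of cycling cells were higher at week 6 in 18 of 19 cases (13.5% of all genes were higher), and the list's median log2 fold change was 1.16, and Mcm7, named after its value was seen, did not pass (0.59, adjusted P = 0.05646). At week 2, 2 of 19 passed, Mcm2 (0.53) and Mcm3 (0.68), and the list's median was 0.41, where 3.10% of all genes were higher. At week 6 the S phase genes Mcm6 and Rrm2 rose by 0.91 and 0.95, and the mitotic genes Plk1, Top2a, Cdk1 and Aurka by 1.34, 1.55, 1.37 and 1.30. At the same time the 5 macrophage markers, Pecam1 and Cdh5, and the lymphocyte markers Nkg7, Cd8a, Cd79a and Cd79b were also higher while Tie1 was lower, and the part of these cells in the cycling genes was not tested. Of 9 tested genes on a senescence-associated list, 1 was higher at week 2 (Plaur) and 6 at week 6, among them Gdf15 (2.48), Plaur (1.57) and Ccl2 (1.95). Lmnb1, a lamin whose transcript is known to fall in senescent cells, was also among the 6, higher by 0.70 (adjusted P = 0.01056). Of all genes 3.10% were higher at week 2 and 13.5% at week 6. Il6 and Il1a were below the filter.

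**Figure D4:**
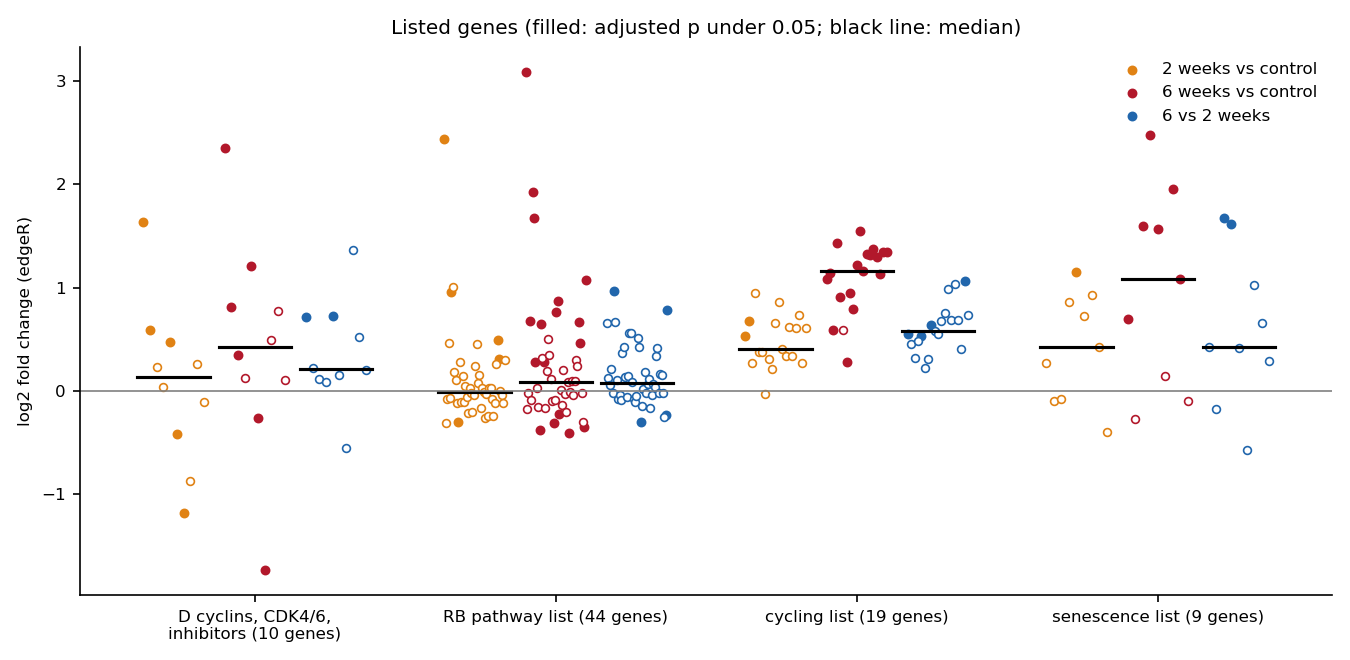
Log2 fold changes (edgeR) of the 10 genes and of the listed RB pathway, cycling and senescence-associated genes in 3 comparisons (colours), filled where the adjusted P is under 0.05, with the median as a black line. At week 6 the cycling list has its median at 1.16 and the RB pathway list at 0.09.

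The genes whose log2 CPM followed each called gene most closely over the 18 mice were found by Pearson's r, given as a description, since mice of a group share their treatment and all genes share library depth. Ccnd1 was closest to Zmat3 (r = 0.989, and 0.827 after group means were removed) and Apln (0.985, and 0.733). Zmat3, a p53 target, rose by 1.16 at week 2 and 1.73 at week 6, and Apln, the ligand apelin, by 2.57 and 3.86. Ccnd2 was closest to Vwa1 (0.963), Adam15 (0.946) and Zmat3 (0.944). After group means were removed, these values were 0.828, 0.680 and 0.663.

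Cdk6 was closest to Mcam (0.973, and 0.748 after group means were removed), Pecam1 (0.957, and 0.729) and Nes (0.955, and 0.650). Of these, Pecam1 is on the endothelial marker list and rose by 0.48 and 0.90 at the 2 times. Cdkn1c was closest to Cdh23 (0.939), Aqp1 (0.938), a water channel, and Car4 (0.931), a carbonic anhydrase. With group means removed, these values were 0.663, 0.607 and 0.570. Aqp1 fell by 1.17 at week 2 and by 2.12 at week 6 on the log2 scale. Cdkn1b was closest to Gpx4 (0.922, and 0.686 with group means removed), Cnbp and Map1lc3b, and Ccnd3 to Wipf2 (0.897, and 0.849), Ubn1 and Ergic1. Among the 10 genes themselves, Cdk6 and Cdkn1c had r = −0.929 over all mice and −0.813 after group means were removed, the strongest value of any pair by that measure.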

How the data were processed

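RNA was extracted from septal tissue of 18 mice (6 per group) and sequenced on the NovaSeq. The authors aligned reads to GRCm38 with STAR and deposited estimated counts per gene from Salmon (version 1.0 per the labels, with CASAVA 1.8), with TPM values in a second table deposited by the authors. TPM depends on the whole library's composition, so a drop of abundant transcripts raises other genes.

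Estimated counts were rounded to whole numbers. The 15054 genes that reached 0.23 CPM in 6 or more libraries were tested with TMM scaling and edgeR 4.0.16's quasi-likelihood test (R 4.3.3) in a fit of all 3 groups, two-sided, with Benjamini-Hochberg adjustment over all genes and a call at adjusted P under 0.05. SE is the log2 fold change over the square root of F. The named genes are the 10 genes, at most 4 called genes of each list role with the smallest adjusted P at 6 weeks, fixed comparison genes (Cdkn1a, Rb1, E2f1, Cdk2, Cdkn2d and neighbours), and the 3 best correlated genes of each called gene. Some genes this rule names are not reported here. The 10 genes, the lists and the tests were chosen with earlier results of these data known. Gene positions were read from GENCODE M21, on the assembly the authors used. Alternatives were DESeq2 1.42.0, limma 3.58.1 (voom, or log2 TPM with a pseudocount of 1 or 0.1, which understates changes of low genes), other scalings and filters, sample subsets and a replicate block. On simulated counts for 6 weeks against controls (15054 genes), the test found 74.7% of 99 genes changed by 1 on the log2 scale. It found 98% of 101 genes changed by 2 and also called 9 unchanged genes. The simulation changed 200 genes drawn from those above 1 CPM in controls, with the controls' spread used for every group. In the data 25.0% of genes were called at week 6, so these rates may not hold there. How often the test finds a change at the low counts of Cdkn2a and Cdkn2b was not tested. Depth per library is given with the results, and P-values cover the spread between mice.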

Additional observations from a re-analysis of the deposited data

Results flagged for a closer look

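The level differed between the irradiated groups for 2 of the 10 genes, by a test of that difference itself (6 weeks against 2 weeks in the same edgeR fit). The controls carry no time point, so time since irradiation and age cannot be told apart. The study's methods describe its controls as matched for age. Ccnd1 was higher at 6 weeks than at 2 weeks by 0.71 on the log2 scale (SE 0.134, adjusted P = 0.007732), in 6 of 6 mice above every 2-week mouse. Cdk6 was higher by 0.73 (SE 0.109, adjusted P = 0.0018), also without overlap. In the 30 sets of 6 mice (10 genes in 3 groups), no mouse lay far enough from the rest of its group to be singled out by Dixon's test.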

How the results depend on the processing

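Of 30 log2 fold changes (10 genes in 3 comparisons), 13 were called and 9 of these stayed called in the same direction under all alternatives run other than a fold threshold, those of Ccnd1 and Cdkn1c against controls, Ccnd2 against controls, Ccnd1 between time points, and Cdk6 at 6 weeks and between time points. The exceptions were Ccnd3 at 6 weeks, Cdk6 at 2 weeks and Cdkn1b at both times, with the values given in the report. Leaving out each mouse in turn gave 4 to 5 called genes at 2 weeks, 5 to 7 at 6 weeks and 2 to 3 between time points. Requiring an absolute log2 fold change above 1 left 2, 3 and 0 called. Directions turned for Cdkn2c at 2 weeks with library size alone (0.036) and without control mouse 1 (0.061, in a range from −0.21 over the mice left out), for Cdkn2c at 6 weeks without control mouse 5 (−0.00024, in a range up to 0.27), and for Cdkn1b at 6 weeks with library size alone (0.0035) and on log2 TPM with a pseudocount of 1 (0.15) or 0.1 (0.17). Cdkn2a gave no value under the stricter count filters, and Cdkn2b gave none under the filter of 10 counts alone.

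Of the RB pathway list, 5 genes were called at 2 weeks, and 9 with library size alone, 12 on log2 TPM with either pseudocount, 3 to 5 without a mouse and 1 with the fold threshold. At 6 weeks 17 were called, 32 on log2 TPM with either pseudocount, 15 to 18 without a mouse, and 4 with the fold threshold. Between time points 4 were called, 2 without a filter, 2 with the replicate block, 1 to 5 without a mouse and 0 with the fold threshold. In CPM in place of TPM, Ccnd2 made up 53.8%, 50.0% and 46.5% of the D cyclin sum in the 3 groups and Ccnd3 33.9%, 25.2% and 20.9%. Over all genes, library size alone turned the split of calls from 467 higher and 291 lower to 1706 and 82 at 2 weeks, from 2028 and 1731 to 5490 and 326 at 6 weeks, and from 498 and 303 to 1098 and 104 between time points, and log2(TPM + 1) gave 2774 and 39, 7354 and 118, and 1026 and 47. The cause was not tested.

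Replicate numbers did not pair the mice (r of deviations between −0.0828 and 0.106, with 3 of 18 mice closest to their own number). With the replicate block, Ccnd3 at 6 weeks had an adjusted P of 0.0682 and no other call among the 10 genes changed. Depth limits Cdkn2a and Cdkn2b, at 22 counts or fewer per library.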
